A study of Homo sapiens with 6 samples.

Results

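The 10 genes described here are markers of mesenchymal cells and regulators of the epithelial-mesenchymal transition (EMT). They were found by gene name among the 57396 genes of a count table from PC-3 cells, an established human prostate carcinoma line grown from a bone metastasis. VIM, SPARC and FN1 are mesenchymal markers, ZEB1, ZEB2, SNAI2 and TWIST1 are transcription factors that drive the transition, and ESRP1, ESRP2 and GRHL2 keep cells epithelial. All 10 names were present, once each. The genes were listed by function, with earlier results of these data known.

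The study asked how PC-3 cells respond to S-adenosylmethionine (SAM), the methyl donor of most cellular methylation reactions. SAM-treated cells received 160 µM SAM for 5 d, and control cells received the vehicle, PBS according to the labels, for the same time, with 3 libraries in each group. Every library came from the same line, so the groups differ in treatment alone as far as the labels state. The study's methods describe a vehicle of sulfuric acid and ethanol in PBS. Whether the solvent of SAM was matched in the control cells is therefore unclear. The labels do not say whether replicates were separate cultures, so p-values cover library-to-library spread only, and that spread may be technical.

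In EMT, epithelial cells give up junctions and apical polarity and take on a motile form rich in vimentin filaments and secreted matrix. The ZEB, SNAI and TWIST factors bind E-box motifs and repress genes such as CDH1, while GRHL2 activates many of the same genes and represses ZEB1. ESRP1 and ESRP2 bind RNA and favour the epithelial exons of FGFR2, CD44, CTNND1 and ENAH.

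SAM libraries held 28995160, 12020601 and 15467639 counts, and control libraries held 9379258, 21768273 and 19985193. The value of 3 counts, taken as the floor of detection, was between 0.103 CPM in SAM 1 and 0.320 CPM in control 1. CPM, the counts scaled to a common library size with TMM factors, are used for levels throughout. The floor values use library totals without TMM factors, and the floor covers counting error only. SAM 2 and control 1 stood apart from the other libraries in the transcript CTD-2328D6.1, at 1.56% and 1.18% of the counts against 0.0324 to 0.0636%, and in mitochondrial rRNA. The epithelial markers KRT8, KRT18, KRT19, EPCAM and CDH1 summed to 2851 to 3595 CPM in SAM libraries and 3331 to 3474 CPM in control libraries. Of the androgen-regulated luminal genes, KLK2 and KLK3 were at 0 in all 6 libraries. Fibroblast markers summed to 17.6 to 18.0 CPM in SAM libraries and 17.6 to 19.5 CPM in control libraries, almost all of it COL1A1, and the fibroblast-defining genes DCN and LUM were at 0 throughout. The summed endothelial markers were at most 2.11 CPM in SAM libraries and 1.86 CPM in control libraries.

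The levels of the genes were set side by side per kilobase of canonical transcript. ESRP1 was the most abundant, at 64.9 ± 2.997 CPM per kb in SAM libraries and 84.5 ± 2.96 CPM per kb in control libraries (SD, n = 3 each). FN1 followed with 47.1 ± 12.3 CPM per kb in SAM libraries and 43.4 ± 3.80 CPM per kb in control libraries. GRHL2 stood at 20.1 ± 2.44 CPM per kb in SAM libraries and 22.8 ± 0.522 CPM per kb in control libraries. The mRNAs of the epithelial splicing factor and of fibronectin were therefore the highest of the group. ESRP2 measured 12.5 ± 0.417 and 12.3 ± 0.308 CPM per kb in SAM and control libraries, and SNAI2 measured 10.1 ± 0.930 and 7.71 ± 0.643 CPM per kb. VIM had 6.71 ± 0.237 CPM per kb in SAM libraries and 4.65 ± 0.339 CPM per kb in control libraries, at the 40.1 percentile of tested genes in control cells. TWIST1 had 5.94 ± 0.646 CPM per kb in SAM libraries and 4.89 ± 0.457 CPM per kb in control libraries. VIM and TWIST1 were the only neighbours to change places between the groups, and they lay within their SDs of each other in control cells. SPARC measured 0.868 ± 0.235 and 1.68 ± 0.292 CPM per kb in SAM and control libraries, and ZEB1 measured 0.298 ± 0.135 and 0.117 ± 0.0397 CPM per kb. ZEB2 was the lowest, near the floor of detection. PC-3 cells are generally described as strongly vimentin-positive, for which a control level below the median of tested genes is low, and no other culture of the line was analysed here to set it against.

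With SAM, VIM was higher, SPARC and ESRP1 were lower, and the other 6 tested genes did not pass the test. A gene passed, and was called, when the adjusted p of edgeR's quasi-likelihood test was under 0.05. Of the 10 genes, 9 had enough counts to be tested and 3 were called, where 10.4% of all 15312 tested genes were called. Called genes were 5.19% higher and 5.24% lower of all tested, against 1 higher and 2 lower among the 9. The groups did not overlap for 7 of the 9, with 4 higher and 3 lower in SAM libraries. Among all tested genes, 36.7% did not overlap, with 17.9% higher and 18.8% lower. The gap was narrow for GRHL2 (117.05 CPM in SAM 2 and 117.06 CPM in control 2) and for ZEB1 (0.924 CPM in SAM 3 and 0.881 CPM in control 3). The median log2 fold change of the 9 was 0.12, beside -0.007 for all tested genes.

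**Figure D1:**
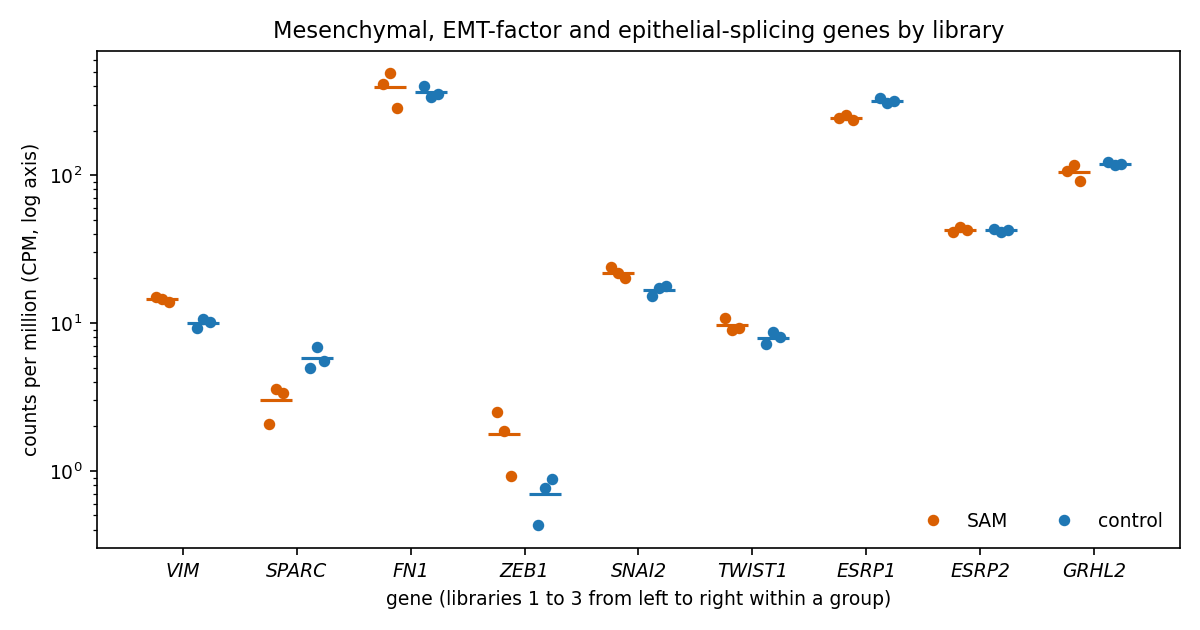
CPM (log axis) of each of the 9 tested genes in the 3 SAM libraries and the 3 control libraries, with points for libraries and bars for the mean. VIM lies between 13.9 and 15.0 CPM in SAM libraries and between 9.22 and 10.7 CPM in control libraries, while ESRP2 and FN1 overlap.

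**Figure D2:**
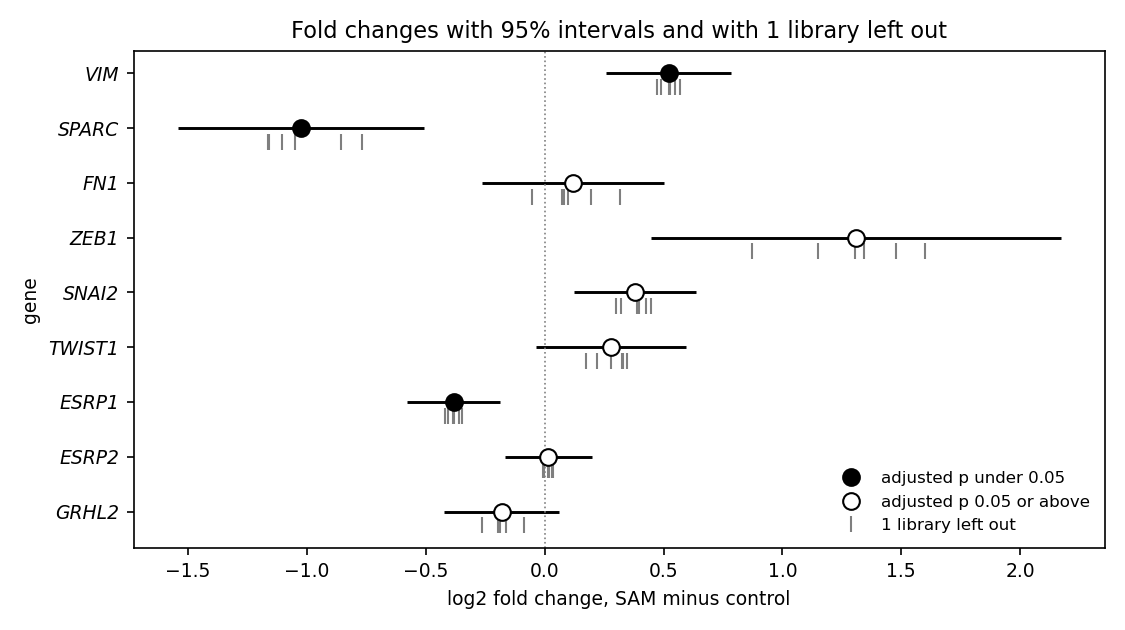
Log2 fold change (SAM over control) of the 9 tested genes with 95% confidence intervals, and ticks for fits that leave out 1 library. Filled points (VIM at 0.52, SPARC at -1.03 and ESRP1 at -0.38) have an adjusted p under 0.05, and the intervals, which are not adjusted for the number of genes, also leave out 0 for ZEB1 and SNAI2.

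VIM encodes vimentin, the main intermediate filament of mesenchymal cells, and lies at chr10:17228259-17237593 on the plus strand (GRCh38). It had 15.0, 14.5 and 13.9 CPM in SAM libraries 1, 2 and 3, against 9.22, 10.7 and 10.1 CPM in control libraries 1, 2 and 3. Every SAM library was above every control library. The mean was 14.4 ± 0.510 CPM in SAM libraries and 10.01 ± 0.731 CPM in control libraries (SD, n = 3 each), a log2 fold change of 0.52 (SE 0.12, 95% interval 0.26 to 0.79) with an edgeR adjusted p of 0.0252. Leaving out each library in turn gave log2 fold changes of 0.47 to 0.57. The call was lost without control 1, 2 or 3 or SAM 1, with edgeR adjusted p of 0.109, 0.0770, 0.124 and 0.0878. With both control 1 and SAM 2 left out, the adjusted p of VIM was 0.0879.

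SPARC encodes a secreted glycoprotein that binds collagen and alters the adhesion of cells to matrix. Its gene lies at chr5:151661096-151687165 on the minus strand. SPARC had 2.07, 3.55 and 3.37 CPM in SAM libraries and 4.93, 6.90 and 5.53 CPM in control libraries. SPARC was thus below its control level in every SAM library. The mean was 2.995 ± 0.809 CPM in SAM libraries and 5.79 ± 1.01 CPM in control libraries, a log2 fold change of -1.03 (SE 0.23, 95% interval -1.54 to -0.51, edgeR adjusted p = 0.0253). SPARC kept its call with control 1 and SAM 2 both left out (edgeR adjusted p = 0.0313), and lost it when control 1, 2 or 3 or SAM 1 was left out alone (edgeR adjusted p = 0.0664, 0.113, 0.103 and 0.0924).

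The promoter letters of these 2 called mesenchymal markers, which moved in opposite directions, and of ZEB1, which has the largest fold change of the 9, are shown because CpG dinucleotides are the sites that DNA methylation modifies. Sequences are from RefSeq on GRCh38.p14, cover 250 bases before to 50 bases after the start that RefSeq gives each gene, run 5′ to 3′ on the gene's strand, and have every CG in capitals. VIM is chr10:17227991-17228290, ZEB1 is chr10:31318167-31318466 and SPARC is chr5:151686866-151687165 on the minus strand. The count table's gene bounds differ from the RefSeq starts, so the SPARC window lies inside the table's SPARC gene and the ZEB1 window lies wholly before the table's ZEB1 gene. A single start per gene was read, and the start that these cells use was not measured.
VIM: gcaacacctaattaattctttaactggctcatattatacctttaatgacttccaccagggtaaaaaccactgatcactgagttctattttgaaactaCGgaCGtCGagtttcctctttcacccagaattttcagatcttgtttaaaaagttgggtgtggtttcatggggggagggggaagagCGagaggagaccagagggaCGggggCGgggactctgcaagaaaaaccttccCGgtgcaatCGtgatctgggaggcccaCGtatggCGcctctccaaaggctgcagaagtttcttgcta
ZEB1: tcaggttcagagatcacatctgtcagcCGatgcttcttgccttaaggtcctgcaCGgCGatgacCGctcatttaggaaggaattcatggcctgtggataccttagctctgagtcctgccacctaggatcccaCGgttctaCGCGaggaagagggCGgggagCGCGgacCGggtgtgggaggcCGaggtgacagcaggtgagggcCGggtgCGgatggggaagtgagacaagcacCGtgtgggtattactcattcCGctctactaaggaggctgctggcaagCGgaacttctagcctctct
SPARC: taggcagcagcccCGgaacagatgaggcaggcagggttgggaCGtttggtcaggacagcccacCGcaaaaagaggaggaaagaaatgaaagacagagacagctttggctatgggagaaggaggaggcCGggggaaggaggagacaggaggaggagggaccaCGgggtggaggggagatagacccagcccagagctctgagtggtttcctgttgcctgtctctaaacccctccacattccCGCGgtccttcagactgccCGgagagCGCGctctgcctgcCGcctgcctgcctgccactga
VIM holds 10 CG and SPARC holds 11, below the median of 14 over 35116 promoters of this length, and ZEB1 holds 17. Of the other genes, FN1 with 38 and ZEB2 with 14 were matched, and SNAI2, TWIST1, ESRP1, ESRP2 and GRHL2 are named only. The E-box letters CAGGTG or CACCTG, searched on both strands as 1 motif and its reverse complement, occur once in the ZEB1 window, where 20.6% of promoters hold them. The other 4 matched promoters do not contain these letters, and no methylation was measured in these libraries.

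FN1 (chr2:215360440-215436172, minus strand) encodes fibronectin, a large matrix glycoprotein that integrins bind. It had 416, 487 and 284 CPM in SAM libraries and 400, 339 and 353 CPM in control libraries. The groups overlapped, with SAM 2 the highest and SAM 3 the lowest of all 6 libraries. The log2 fold change was 0.12 (SE 0.17, 95% interval -0.26 to 0.50, edgeR adjusted p = 0.661). Without SAM 3 it was 0.32 (edgeR adjusted p = 0.0624), and without SAM 2 it was -0.05. SAM 3 had the steepest trend of level with transcript length, at -0.11 log2 CPM per doubling, against -0.05 to 0.06 in the other libraries, and FN1 has a long transcript. The part of that trend in the FN1 values was not tested on its own. A fit that removed each library's trends with length and GC content together gave a log2 fold change of 0.27 for FN1, and it does not separate these trends.

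Among the transcription factors, ZEB1 and SNAI2 were higher in every SAM library than in every control library but did not pass the test. ZEB1, a zinc-finger repressor of epithelial genes (chr10:31318495-31529814, plus strand), had 2.51, 1.86 and 0.924 CPM in SAM libraries and 0.429, 0.772 and 0.881 CPM in control libraries. These values rest on 73, 22 and 14 counts in SAM libraries and 4, 17 and 18 counts in control libraries. The log2 fold change of ZEB1 was 1.31 (SE 0.39, 95% interval 0.45 to 2.17, edgeR adjusted p = 0.0581). ZEB1 was the largest change of the 9 and rested on the fewest reads. It was called by DESeq2 (adjusted p = 0.0408), without a filter on low counts (edgeR adjusted p = 0.0014) and without SAM 3 (1.60, edgeR adjusted p = 0.0114), and without SAM 1 it was 0.87 (edgeR adjusted p = 0.251).

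SNAI2 (chr8:48917690-48921740, minus strand) encodes Slug, a SNAI-family zinc-finger factor also found in basal epithelial cells. It had 24.0, 21.7 and 20.0 CPM in SAM libraries and 15.2, 17.3 and 17.9 CPM in control libraries. The lowest SAM value lay above the highest control value. The log2 fold change was 0.38 (SE 0.11, 95% interval 0.12 to 0.64) with an edgeR adjusted p of 0.0619. That adjusted p was 0.0206 without SAM 3 and 0.0442 without a filter on low counts. Leaving out each library in turn gave log2 fold changes of 0.30 to 0.45, and SNAI2 was called in only 1 of these 6 fits.

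TWIST1, a basic helix-loop-helix factor (chr7:19020991-19117672, minus strand), had 10.9, 8.96 and 9.18 CPM in SAM libraries and 7.19, 8.67 and 8.03 CPM in control libraries. The groups lay close to each other without overlap, with SAM 2 nearest to control 2. The log2 fold change was 0.28 (SE 0.14, 95% interval -0.04 to 0.60, edgeR adjusted p = 0.210). ZEB2, the partner repressor of ZEB1 (chr2:144384081-144524583, minus strand), had 0, 1 and 0 counts in SAM libraries and 1, 1 and 2 counts in control libraries, below the floor of 3 counts in every library. A difference in ZEB2 was not detectable at this depth, and no fold is given.

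Of the epithelial keepers, ESRP1 was lower with SAM while its paralog ESRP2 differed little. ESRP1 (chr8:94641074-94707466, plus strand) had 242, 257 and 234 CPM in SAM libraries and 330, 307 and 319 CPM in control libraries. No SAM library reached the lowest control value. The mean was 244 ± 11.3 CPM in SAM libraries and 319 ± 11.2 CPM in control libraries, a log2 fold change of -0.38 (SE 0.09, 95% interval -0.58 to -0.19, edgeR adjusted p = 0.0266). As with VIM, the call was lost without control 1, 2 or 3 or SAM 1 (edgeR adjusted p = 0.132, 0.0913, 0.146 and 0.0913), with log2 fold changes of -0.42 to -0.35. With control 1 and SAM 2 both left out, the adjusted p of ESRP1 was 0.0753.

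ESRP2 (chr16:68229111-68238102, minus strand) had 41.4, 44.2 and 42.7 CPM in SAM libraries and 43.3, 41.2 and 42.4 CPM in control libraries. The 2 groups were interleaved. Its log2 fold change was 0.02 (SE 0.08, 95% interval -0.17 to 0.20, edgeR adjusted p = 0.921). The ratio of ESRP1 CPM to ESRP2 CPM within a library, not corrected for length and chosen after the values were seen, was 5.86, 5.80 and 5.49 in SAM libraries and 7.61, 7.46 and 7.51 in control libraries. Every SAM ratio was below every control ratio, which is given as a description. An exact permutation test of the ratio gave a two-sided p of 0.1. That is the smallest p possible with 3 against 3 libraries, so this test could not pass 0.05.

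GRHL2, a grainyhead-family activator of epithelial junction genes (chr8:101492432-101669726, plus strand), had 107, 117 and 91.6 CPM in SAM libraries and 122, 117 and 118 CPM in control libraries. SAM 2 and control 2 were nearly equal. The log2 fold change was -0.18 (SE 0.11, 95% interval -0.42 to 0.06) with an edgeR adjusted p of 0.284, and it ranged from -0.26 to -0.09 when 1 library was left out.

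Pearson's r over the 6 libraries was used to find genes whose log2 CPM ran most like the called members, among 11692 genes of sufficient level. The closest to VIM were MARCH2 (r = 0.996), LRFN1 (r = 0.995) and FZD8 (r = 0.995). FZD8, a Wnt receptor, averaged 179 CPM in SAM libraries and 113 CPM in control libraries, a direction that follows from its selection by likeness to VIM. SPARC ran closest to PSPH (r = 0.992), CNIH3 (r = 0.988) and ZNF766 (r = 0.988). PSPH, an enzyme of serine synthesis, averaged 61.8 CPM in SAM libraries and 80.02 CPM in control libraries. PSPH and ZNF766 were not called (edgeR adjusted p = 0.0665 and 0.150), while CNIH3 was (edgeR adjusted p = 0.0242). ESRP1 ran closest to LINC00662 (r = 0.997), ZFAND1 (r = 0.996) and GRAMD1C (r = 0.995). These likenesses are descriptions over 6 libraries of 2 treatments, which share library and depth, and carry no p.

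Further genes of the same pathway were read from lists chosen by function, also with earlier results of these data known. Of 19 tested mesenchymal genes, 3 were called higher and 0 lower, and 16 were not called, with a median log2 fold change of -0.02, where 5.19% of all tested genes were higher. DESeq2 and limma voom also called 0 lower, and 3 were lower at an unadjusted edgeR p under 0.05. Without SAM 2, without SAM 3 or with the length and GC trends removed, 1 was called lower. Of all tested genes, 1572 of 15896, 1246 of 15900 and 1263 of 15312 were lower in these fits. TGFBI, a secreted adhesion protein induced by TGF-beta, averaged 191 ± 11.6 CPM in SAM libraries and 108 ± 4.61 CPM in control libraries (log2 fold change 0.83, edgeR adjusted p = 0.0018). CDH11, a cadherin of mesenchymal cells, averaged 10.9 ± 3.65 CPM in SAM libraries and 5.04 ± 0.753 CPM in control libraries (1.11, edgeR adjusted p = 0.0239). TGFBI was called with any 1 library left out, while CDH11 was not called without control 1, 2 or 3 or SAM 1 (edgeR adjusted p = 0.0915, 0.0648, 0.124 and 0.111). TGFBI and CDH11 thus rose, while SPARC fell. CDH2, the N-cadherin of EMT, had 15.2 ± 1.44 CPM in SAM libraries and 19.7 ± 2.39 CPM in control libraries and was not called.

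Of 11 tested other EMT transcription factors, 1 rose and 1 fell, near the 5.19% higher and 5.24% lower of all tested genes. SIX2, a homeobox factor, averaged 11.6 ± 1.24 CPM in SAM libraries and 6.57 ± 1.005 CPM in control libraries (0.82, edgeR adjusted p = 0.0143). SOX4 averaged 83.3 ± 6.85 CPM in SAM libraries and 149 ± 10.4 CPM in control libraries (-0.84, edgeR adjusted p = 0.0026). SOX4 was called with any 1 library left out, and SIX2 lost its call without control 1, control 3 or SAM 1 (edgeR adjusted p = 0.0658, 0.0877 and 0.0679). SNAI1, the Snail paralog of SNAI2, was not called, with 2.74 ± 0.214 CPM in SAM libraries and 1.90 ± 0.167 CPM in control libraries.

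Of 14 tested epithelial transcription factors other than GRHL2, 7 fell and 0 rose in edgeR, with a median log2 fold change of -0.42, where 5.24% of all tested genes fell. At an unadjusted p under 0.05 the count higher was also 0, as it was in DESeq2 and limma voom, each of which called 8 lower. TP63, a master regulator of basal epithelium, averaged 27.6 ± 7.56 CPM in SAM libraries and 55.7 ± 3.05 CPM in control libraries (-1.02, edgeR adjusted p = 0.0077). FOXA1, a pioneer factor of luminal prostate cells, averaged 67.1 ± 5.29 CPM in SAM libraries and 94.0 ± 6.43 CPM in control libraries (-0.49, edgeR adjusted p = 0.0201). GATA3 (-0.60), ELF3 (-0.49) and GRHL3 (-0.93), the last a paralog of GRHL2, also fell, as did KLF4 (-0.46), named after its values were seen. OVOL1 and OVOL2, repressors of ZEB1, were not called, with log2 fold changes of 0.14 and 0.15. Without control 3 or without SAM 1 the count that fell was 0, without control 1 or control 2 it was 1, and with control 1 and SAM 2 both left out it was 3. The count was 9 without SAM 2, where 1572 of all 15896 tested genes fell, and 7 without SAM 3, where 1246 of 15900 fell.

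**Figure D3:**
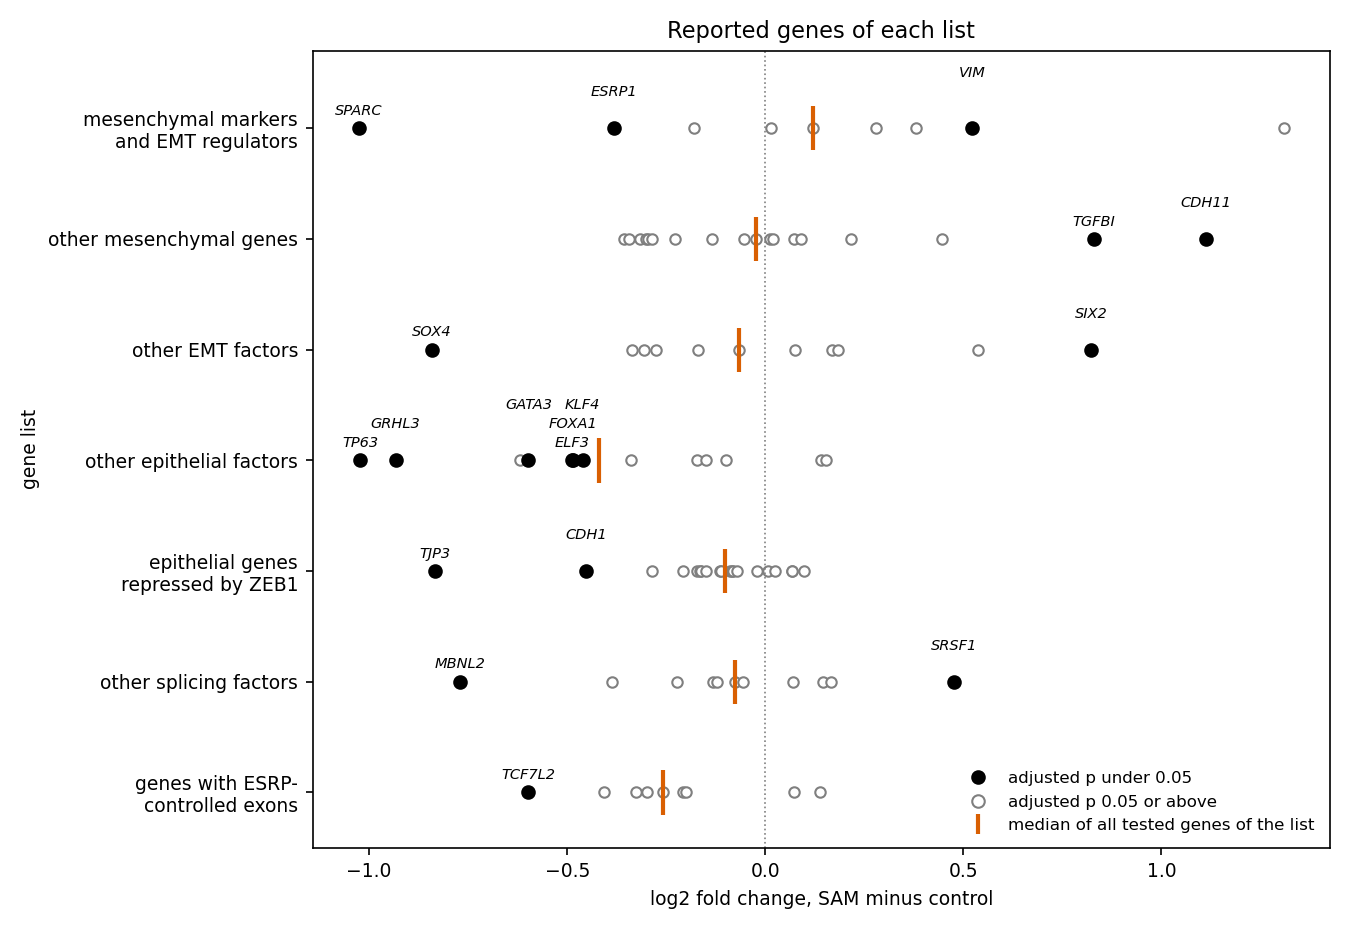
Log2 fold change (SAM over control) of the reported genes of each list, with called genes named and the median over all tested genes of the list as a line. The epithelial transcription factors lie lowest, with a median of -0.42, while the other mesenchymal genes have a median of -0.02.

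Of 20 tested epithelial genes that ZEB1 is known to repress, 2 fell and 0 rose in edgeR, DESeq2 and limma voom, with 0 higher also at an unadjusted p under 0.05, where edgeR called 5.24% of all tested genes lower. TJP3, a tight-junction scaffold, averaged 15.2 ± 2.26 CPM in SAM libraries and 27.0 ± 2.05 CPM in control libraries (-0.83, edgeR adjusted p = 0.0072). CDH1, which encodes E-cadherin, averaged 267 ± 31.7 CPM in SAM libraries and 365 ± 22.3 CPM in control libraries (-0.45, edgeR adjusted p = 0.0298). TJP3 lost its call only without control 2 (edgeR adjusted p = 0.0503), and CDH1 without control 1, 2 or 3 or SAM 1 (edgeR adjusted p = 0.141, 0.0884, 0.133 and 0.119). EPCAM, an epithelial surface protein, had 440 CPM in SAM libraries and 420 CPM in control libraries and was not called.

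Of 11 other splicing factors of EMT, 1 rose and 1 fell, again near the shares of all tested genes (5.19% higher and 5.24% lower). SRSF1, an SR protein, averaged 228 ± 23.8 CPM in SAM libraries and 164 ± 3.51 CPM in control libraries (0.48, edgeR adjusted p = 0.0201). MBNL2, a muscleblind-family factor, averaged 48.1 ± 13.8 CPM in SAM libraries and 82.0 ± 6.61 CPM in control libraries (-0.77, edgeR adjusted p = 0.0274). Among 9 genes whose exons ESRP1 and ESRP2 control, TCF7L2, a Wnt effector, fell (19.3 ± 3.85 CPM in SAM libraries and 29.1 ± 4.14 CPM in control libraries, edgeR adjusted p = 0.0387) and 8 were not called. SRSF1, MBNL2 and TCF7L2 were no longer called without control 1, 2 or 3 or SAM 1 (edgeR adjusted p between 0.0690 and 0.160), and TCF7L2 also without SAM 3 (edgeR adjusted p = 0.0527). Of the 9 genes with exons under ESRP control, 6 were called lower without SAM 2, where 1572 of all 15896 tested genes were lower. With any other library left out, 0 of the 9 were called. Gene-level counts do not show which exons were used, so splicing by ESRP1 was not measured.

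MIR205HG, the host transcript of miR-205, which is known to target ZEB1 and ZEB2, had 54.8, 65.1 and 79.6 CPM in SAM libraries and 98.0, 97.9 and 105.9 CPM in control libraries. It was lower in every SAM library than in every control library (log2 fold change -0.60, edgeR adjusted p = 0.0244). The call was lost without control 1, 2 or 3 or SAM 1 (edgeR adjusted p = 0.0852, 0.0772, 0.118 and 0.0814) and with control 1 and SAM 2 both left out (edgeR adjusted p = 0.0700). The mature miRNA, chr1:209432166-209432187 on the plus strand in RefSeq on GRCh38.p14, is shown with its seed of bases 2 to 8 in capitals because the seed is what pairs with its targets.
hsa-miR-205-5p: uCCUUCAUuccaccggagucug
The library preparation measured the host transcript and not the mature miRNA. The host transcript of miR-200c was at 0 in all 6 libraries.

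VIM and ZEB1 have antisense partners whose reads cannot be told from theirs where the genes overlap, since the sources used here do not give strand use in counting. VIM-AS1 had 1.31, 0.677 and 0.264 CPM in SAM libraries and 0.429, 0.590 and 0.930 CPM in control libraries, with overlapping groups. ZEB1-AS1 had 3.38, 2.88 and 2.51 CPM in SAM libraries and 4.83, 4.27 and 3.82 CPM in control libraries. Every SAM value of ZEB1-AS1 was below every control value, the reverse of ZEB1, with a log2 fold change of -0.52 and an edgeR adjusted p of 0.0945. ZEB2-AS1 had no counts.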

How the data were processed

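RNA of PC-3 cells was sequenced from 3 SAM and 3 control libraries. Per the labels, a Peq-Gold kit gave the RNA, 500 ng of it entered TruSeq RNA libraries, and a HiSeq2000 read them. The study's methods describe another dose, vehicle, kit, sequencer and pipeline, and the labels were followed. The submitters' processing notes list STAR 2.4 and HTSeq 0.6.1 as well as DESeq2 1.8, CASAVA 1.8.2, SAMtools 0.1.19 and FastQC 0.10.0, and give hg19 and mm10 as builds, all without their role. The authors deposited raw counts per Ensembl gene, used here as deposited, and a table of normalised values, not used here. No library-level filter was applied, and 26522 of 57396 genes had no count. Coordinates in the table lie on GRCh38: 99.8% of 51488 identifiers shared with GENCODE 44 overlap that gene.

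Counts were tested with edgeR 4.0.16 (R 4.3.3, glmQLFit and glmQLFTest) with TMM factors and treatment as the only term. The filterByExpr step left 15312 genes, which hold 99.9% of all counts. Tests were two-sided, and the threshold was a Benjamini-Hochberg adjusted p under 0.05. SE is the absolute log2 fold change over the square root of F, and 95% intervals use t with edgeR's total degrees of freedom. The biological coefficient of variation was 13.5%. Library depth spans 3.09-fold, and precision is poorest for low genes such as ZEB1 and ZEB2. No pair of libraries within a group agreed within sampling noise. On simulated counts the fit called 41.8% of 1.5-fold, 79.1% of 2-fold and 95.5% of 4-fold changes. A gene without a call can therefore still have changed, often by 1.5-fold and less often by 2-fold or 4-fold. Alternatives were RLE factors, library totals, other filters, DESeq2 1.42.0, limma voom 3.58.1, the replicate number as a block, libraries left out, a stricter threshold and, chosen after seeing the data, removal of each library's trend with transcript length and GC content. Lengths are of GENCODE 44 canonical transcripts.

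The members, lists and tests were chosen with earlier results of these data known. Named genes are all members, up to 5 called genes with the smallest p of each list (otherwise the gene with the smallest p), antisense partners with counts and, for each called member, the 3 genes most like it among those averaging 2 or more in log2 CPM. Other listed genes without a call were named after their values were seen. Some genes that the counts include are not reported here by name or value.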

Additional observations from a re-analysis of the deposited data

How the results depend on the processing

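Across fits, 1598 genes were called in all with TMM, 2743 without a filter on low counts, 1028 with the replicate block, 954 with control 1 and SAM 2 both left out, 253 at an adjusted p under 0.01, 2811 with the length and GC trends removed, and 139 to 3233 with 1 library left out. Scaling by library totals called 608 higher and 961 lower, against 795 and 803 with TMM. The median log2 fold change of all tested genes was -0.038 with library totals and -0.007 with TMM. Of the members, 1 was higher with TMM, 3 without a filter, 2 in DESeq2, 3 with the trends removed, and 0 with the block, with control 1 and SAM 2 left out or at an adjusted p under 0.01, with 0 to 3 when 1 library was left out. Of the members, 2 were lower with TMM, 1 with the block or with control 1 and SAM 2 left out, 0 at the stricter threshold, and 0 to 2 when 1 library was left out. In each edgeR fit with 0 members higher, 2 or 3 were higher at an unadjusted p under 0.05, and limma voom called 1 and DESeq2 called 2. In each with 0 lower, 2 were lower at an unadjusted p under 0.05, and both other tools called 2. ESRP2, near 0 throughout, had a log2 fold change of -0.016 with library totals and ranged from -0.0083 to 0.035 with 1 library left out, and that of FN1 ranged from -0.055 to 0.32. The cause of these changes was not tested.

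Replicate numbers do not pair the libraries: deviations of SAM and control libraries with the same number correlated at -0.21, -0.47 and 0.16, and SAM 2 correlated with control 1 at 0.53. With the replicate block, VIM and ESRP1 had edgeR adjusted p of 0.0611 and 0.0877, and SPARC had 0.0191. ZEB1 could not be tested with at least 1 CPM required in 3 libraries. Depth limits ZEB1 and ZEB2, whose counts did not pass 73 and 2 in any library.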
